A study of Rattus norvegicus with 102 samples.

Results

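Oligodendrocyte precursor genes were followed through the CA1, CA3 and dentate gyrus (DG) subfields of the hippocampus in young and aged rats. The set comprised 7 genes chosen by name, Pdgfra, Cspg4, Gpr17, Olig1, Olig2, Sox10 and Bcas1, of the 26689 genes in the table of normalized counts. Poly-A mRNA was sequenced on the Ion Proton with 1 library from each subfield of 34 male Fischer 344 rats. Young rats were 5 to 6 months old (10 rats) and aged rats 17 to 22 months old, and the aged rats were divided by their spatial memory score in a water maze into aged-unimpaired (AU, 12 rats) and aged-impaired (AI, 12 rats). All groups, young rats included, had been trained in the maze, and each library held the mixed cells of a dissected subfield. In such bulk tissue, fewer cells of a type and less RNA per cell cannot be told apart.

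Oligodendrocyte precursors are dividing glial cells spread through the adult brain. They are known for giving rise to the oligodendrocytes that wrap axons in myelin, and they continue to do so in the adult hippocampus. Precursors read growth signals through Pdgfra, the receptor for platelet-derived growth factor, and carry the proteoglycan NG2, the product of Cspg4, on their surface, while Gpr17 is a G protein-coupled receptor found on precursors that have begun to differentiate. Olig1, Olig2 and Sox10 encode transcription factors that specify the lineage and stay on in mature oligodendrocytes, and Bcas1 marks cells that are starting to make myelin and is present in myelin itself. Pdgfra is also known from fibroblasts of the brain's vessels and meninges, and Cspg4 from pericytes.

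RefSeq held promoter entries for 4 of the 7 members, and the 250 bases before the annotated start are printed for Cspg4 and Gpr17, a pair of surface proteins whose levels followed each other closely with and without the libraries set apart in what follows. Both are read 5′ to 3′ on the strand of the gene in the GRCr8 build, with Cspg4 at chr8:66160692-66160941 on the plus strand and Gpr17 at chr18:23857382-23857631 on the minus strand. Capitals mark the GC box GGGCGG, searched on both strands.
Cspg4: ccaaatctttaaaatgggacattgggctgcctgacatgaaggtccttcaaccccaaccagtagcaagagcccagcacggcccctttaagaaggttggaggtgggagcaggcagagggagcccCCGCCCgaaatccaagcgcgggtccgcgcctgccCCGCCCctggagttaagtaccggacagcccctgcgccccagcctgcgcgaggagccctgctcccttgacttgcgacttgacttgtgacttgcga
Gpr17: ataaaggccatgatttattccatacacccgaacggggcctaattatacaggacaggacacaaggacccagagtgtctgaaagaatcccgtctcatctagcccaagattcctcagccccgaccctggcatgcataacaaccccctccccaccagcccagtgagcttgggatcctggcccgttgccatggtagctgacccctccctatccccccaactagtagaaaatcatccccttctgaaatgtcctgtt
The Cspg4 window held 2 GC boxes and was 62% G or C, while the Gpr17 window held none and was 53.2% G or C. The median over all 33469 promoter windows of this length was 51.2%. A GC box was present in 30.5% of all windows, and among the members also once in Olig2 and not in Pdgfra. The SOX motif (ACAAAG or ACAATG, both strands), present in 25.3% of all windows, had no match in any of the 4 members' windows. An E-box (CANNTG, which reads the same on both strands), present in 65.5%, was matched once, in Pdgfra. No window held more than 1 kind of motif, and a match or its absence says nothing of binding.

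Every member was detected in every library, with between 19 recovered reads (Gpr17) and 14819 (Bcas1) in a library, and all 7 passed the filter of a mean of at least 5 normalized counts. A library held between 4478984 and 21467303 recovered reads. Some libraries stood apart. In 20 libraries the marker genes of the labelled subfield did not score highest among those of the 3 subfields, and all 20 belonged to the 48 libraries of rats whose identifiers begin with R9, including 14 of their 16 CA3 libraries. Rats whose identifiers begin with R1 or R2 had none in 54 libraries. The labels do not say what separates the R9 series (16 rats, 5 of them young) from the R1-R2 series (18 rats, 5 of them young). The methods of the study describe rats from 2 suppliers characterised at 2 sites, with the same numbers of young and aged rats at the sites as in the series, but no label ties a rat to a site. A further 7 libraries, 4 of CA1 and 3 of CA3 and all from aged rats, had reads on fewer than 17000 genes (15153 to 16972, against 17281 to 19799 in the other 95). Member results are therefore also given within each series and without these libraries where they changed. Tests on differences within rats were not refitted without the libraries of few genes. Results of other gene lists are given by series for some comparisons only.

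All 7 members were lower in DG than in either pyramidal subfield. Subfields were compared with limma on log2 values (normalized count + 1), with no term for the rat. Differences are given as log2 FC, which is positive where the first subfield named is higher. Against CA1, 7 of 7 members passed an adjusted p of 0.05 with lower values in DG, where 28.5% of all genes tested passed in either direction. Against CA3, again 7 of 7 were lower in DG, beside 28.9% of all genes. Over the members the median log2 FC was 0.52 with CA1 and 0.71 with CA3 as the first subfield, and over all genes it was -0.00 and 0.01. DG had the lowest of a rat's 3 values in 23 (Gpr17 and Bcas1) to 28 (Sox10) of 34 rats, and all 7 members were lowest in DG in 12 of 34 rats. These 12 were 4 of the 16 rats of the R9 series and 8 of the 18 rats of the R1-R2 series.

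**Figure D1:**
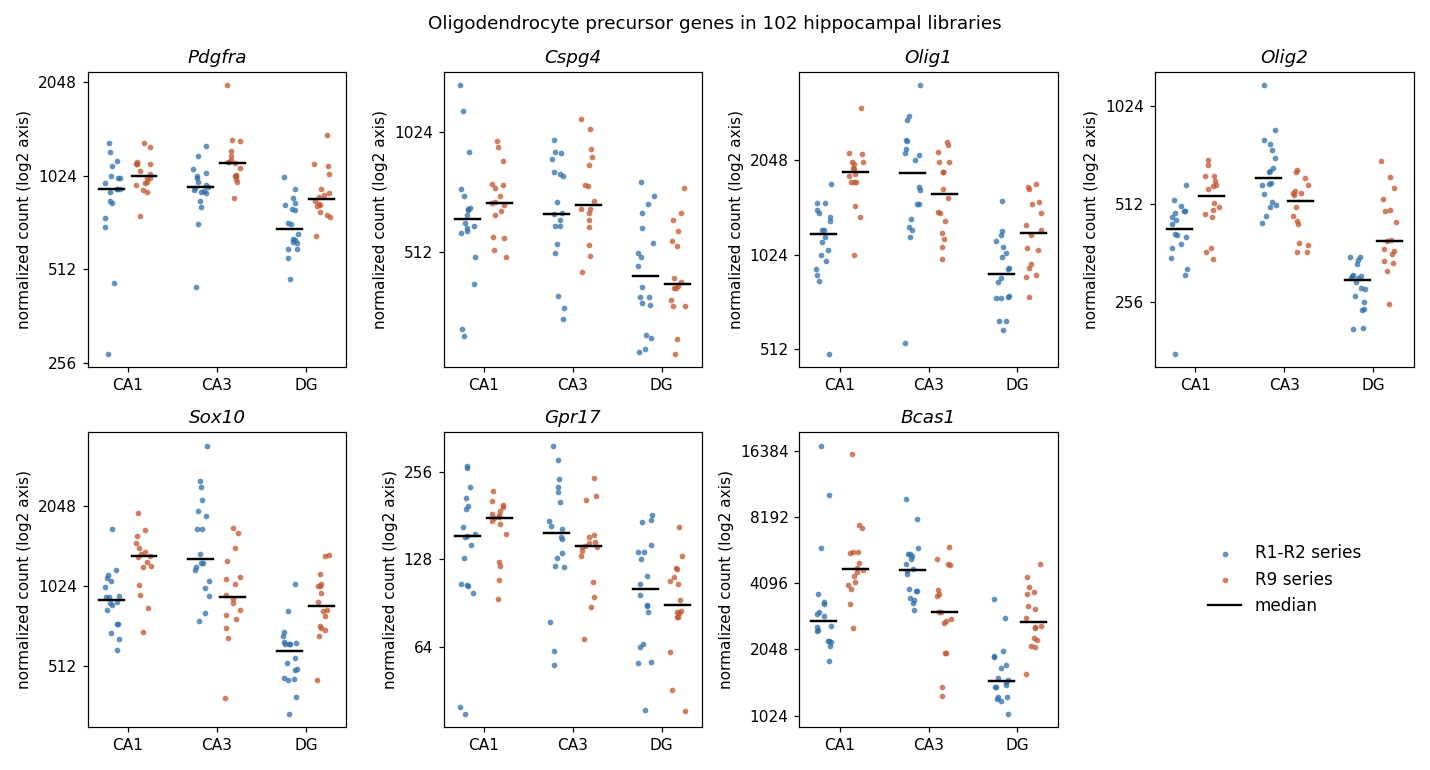
Normalized count of each member in every library (log2 axis), by subfield, with the R1-R2 series in blue and the R9 series in orange and a black bar at each median. The DG points lie lower than CA1 and CA3 for each gene but overlap them, and in Olig1, Olig2, Sox10 and Bcas1 the order of the CA1 and CA3 medians turns between the series, as it does by less in Cspg4 and Gpr17.

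Among the surface proteins, the growth factor receptor Pdgfra differed least. Its normalized count ran from 274 to 1305 in CA1 (median 990.0), from 451 to 2003 in CA3 (median 1023) and from 476 to 1385 in DG (median 811). The 3 ranges overlapped over most of their length. The log2 FC of Pdgfra was 0.25 in CA1 relative to DG (95% interval 0.08 to 0.42, adj-p = 0.0198) and 0.37 in CA3 relative to DG (0.20 to 0.54, adj-p = 0.000409). CA1 and CA3 did not differ beyond their spread (-0.12, interval -0.29 to 0.05, adj-p = 0.398). The call between CA1 and DG was lost in either series alone, at 0.21 in R9 (adj-p = 0.0503) and 0.29 in R1-R2 (adj-p = 0.129). Pdgfra was at 274 in the CA1 library with the fewest genes detected, that of an AU rat, and without the 7 libraries of few genes the log2 FC for CA1 against DG was 0.37.

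Cspg4, the NG2 proteoglycan, showed a larger difference. It ranged from 315 to 1346 in CA1 (median 655), from 346 to 1109.7 in CA3 (median 656) and from 283 to 769.7 in DG (median 424). The CA1 and CA3 medians were nearly equal and their log2 FC was -0.04 (interval -0.24 to 0.16). Both exceeded DG, by 0.52 (0.32 to 0.72, adj-p = 1.87e-05) and 0.56 (0.36 to 0.76, adj-p = 4.32e-06). Within the series the Cspg4 differences from DG were 0.60 and 0.64 in R9 and 0.46 and 0.49 in R1-R2, each with an adjusted p under the threshold. Gpr17, the receptor of differentiating precursors, was the member with the fewest reads. Its values ran from 37.5 to 268 in CA1 (median 168), from 55.3 to 317 in CA3 (median 147) and from 38.5 to 182.5 in DG (median 94.8). It was higher than in DG by 0.65 in CA1 (0.37 to 0.94, adj-p = 0.000203) and by 0.62 in CA3 (0.33 to 0.90, adj-p = 0.000418). CA1 and CA3 were not told apart (0.03, interval -0.25 to 0.32).

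The transcription factors of the lineage had their lowest medians in DG and their highest in CA3. Olig2 ran from 178 to 699 in CA1 (median 481), from 364 to 1184 in CA3 (median 559) and from 213 to 695 in DG (median 336). Over all rats it was the only member called between the pyramidal subfields, 1 of 7 where 15% of all genes passed. Its log2 FC in CA1 relative to CA3 was -0.30 (interval -0.49 to -0.12, adj-p = 0.0169). The series differed in this value, with -0.63 in R1-R2 alone and 0.07 in R9 alone. Olig1 had medians of 1446 in CA1, 1668 in CA3 and 1021 in DG. Its ranges were 496 to 3003, 537 to 3541 and 588 to 1717. Its log2 FC was 0.47 in CA1 and 0.71 in CA3 relative to DG (adj-p = 0.000881, and adj-p = 5.19e-07), and -0.24 in CA1 relative to CA3 (interval -0.47 to -0.01, adj-p = 0.166). Sox10, which acts with the Olig factors to turn on myelin genes, had medians of 1051 in CA1, 1141 in CA3 and 676 in DG. Its ranges were 589 to 1919, 387 to 3457 and 337 to 1339.9. The Sox10 differences were 0.61 in CA1 and 0.78 in CA3 relative to DG (adj-p = 7.48e-05, and adj-p = 3.73e-07), and -0.17 in CA1 relative to CA3 (interval -0.43 to 0.08).

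Bcas1, the gene of cells entering myelination, spanned the widest range relative to its lowest value. It ran from 1812 to 17314 in CA1 (median 3749), from 1261 to 9893 in CA3 (median 3791) and from 1041 to 4987 in DG (median 2058). Its log2 FC was 0.94 in CA1 and 0.87 in CA3 relative to DG (0.62 to 1.26, adj-p = 1.8e-06, and 0.55 to 1.19, adj-p = 9.41e-06), and 0.07 in CA1 relative to CA3 (-0.25 to 0.39). The 4 highest Bcas1 values, 17314, 15763, 10301 and 9893, all came from the libraries with reads on fewer than 17000 genes. Without those 7 libraries the difference between CA1 and DG was 0.74, and Bcas1 remained called.

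**Figure D2:**
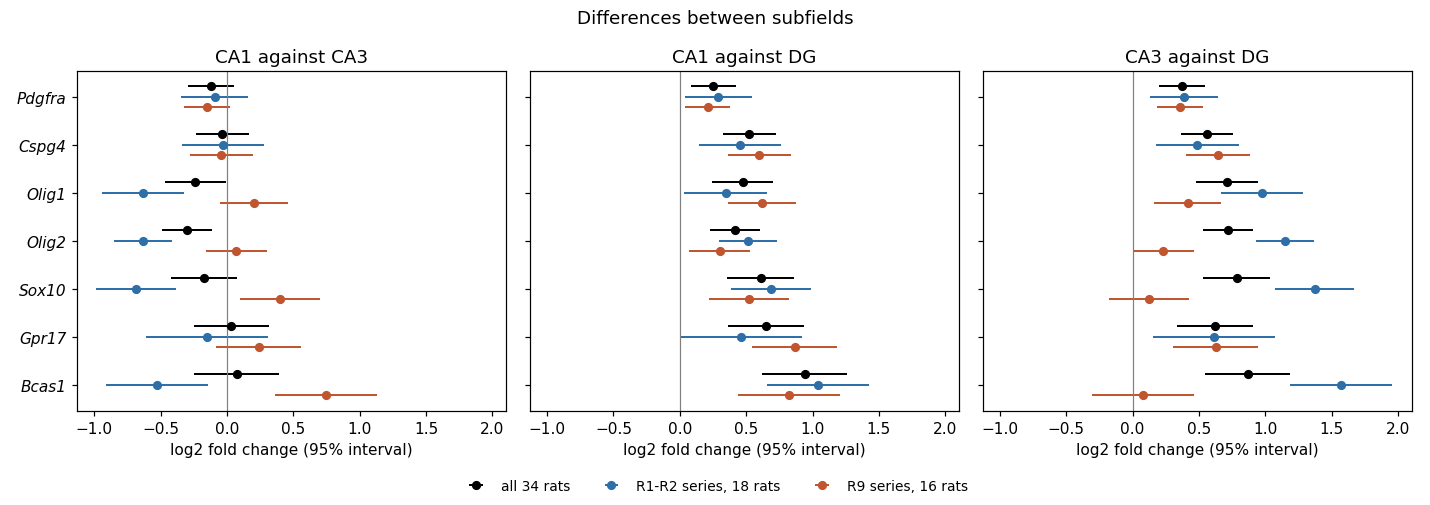
Log2 FC with its 95% interval (limma) for each member in the 3 comparisons of subfields, over all 34 rats (black), the R1-R2 series (blue) and the R9 series (orange). Point estimates of CA1 and CA3 against DG lie above 0 in each set of rats. Not all were called within a series, as with Olig2, Sox10 and Bcas1 in CA3 against DG in R9 (0.23, 0.12 and 0.08). For Olig1, Olig2, Sox10 and Bcas1 the R1-R2 and R9 values of CA1 against CA3 lie on opposite sides of 0, as do those of Gpr17 (-0.15 and 0.24).

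The comparison of CA1 with CA3 differed between the identifier series for the 3 transcription factors and Bcas1. In the R1-R2 series, where every library scored highest for its own subfield, Olig1, Olig2, Sox10 and Bcas1 were lower in CA1 than in CA3 by log2 FC of -0.63, -0.63, -0.69 and -0.53 (4 of 7 members called, with 21.8% of all genes called in that series). In the R9 series the same values were 0.20, 0.07, 0.40 and 0.75, of which Bcas1 alone passed (adj-p = 0.0141, with 4.96% of all genes called). The difference between the series was tested on the log2 difference between subfields within each rat, with limma over all genes. The difference CA1 minus CA3 was higher in R9 than in R1-R2 by 0.83 for Olig1 (interval 0.46 to 1.21, adj-p = 0.00128) and by 0.70 for Olig2 (0.40 to 1.01, adj-p = 0.000762). For Sox10 it was higher by 1.09 (0.70 to 1.48, adj-p = 6.77e-05) and for Bcas1 by 1.27 (0.70 to 1.85, adj-p = 0.00133). These 4 of 7 members stood beside 14.2% of all genes called. CA3 minus DG moved the other way, by -0.56 for Olig1, -0.92 for Olig2, -1.25 for Sox10 and -1.49 for Bcas1, also 4 of 7 called beside 19% of all genes. For CA1 minus DG, 0 of 7 members and 7.14% of all genes were called. In this limma test, the one tool used for it, 0 members and 27.1% of all genes had an unadjusted p under 0.05.

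Pdgfra, Cspg4 and Gpr17 were not called in any of these tests between series. The series differed in CA1 minus CA3 by -0.05 for Pdgfra (interval -0.39 to 0.28), by -0.01 for Cspg4 (-0.33 to 0.31) and by 0.39 for Gpr17 (-0.04 to 0.82, adj-p = 0.238). For Gpr17 the interval reaches sizes seen in the called members. The rats showed the split one by one. Sox10 was lower in CA1 than in CA3 in 16 of 18 rats of the R1-R2 series and higher in 12 of 16 rats of the R9 series. Bcas1 was lower in CA1 in 15 of 18 and higher in 14 of 16. Cspg4 was lower in CA1 in 11 of 18 and in 10 of 16 rats, with mean log2 differences of -0.03 and -0.04.

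**Figure D3:**
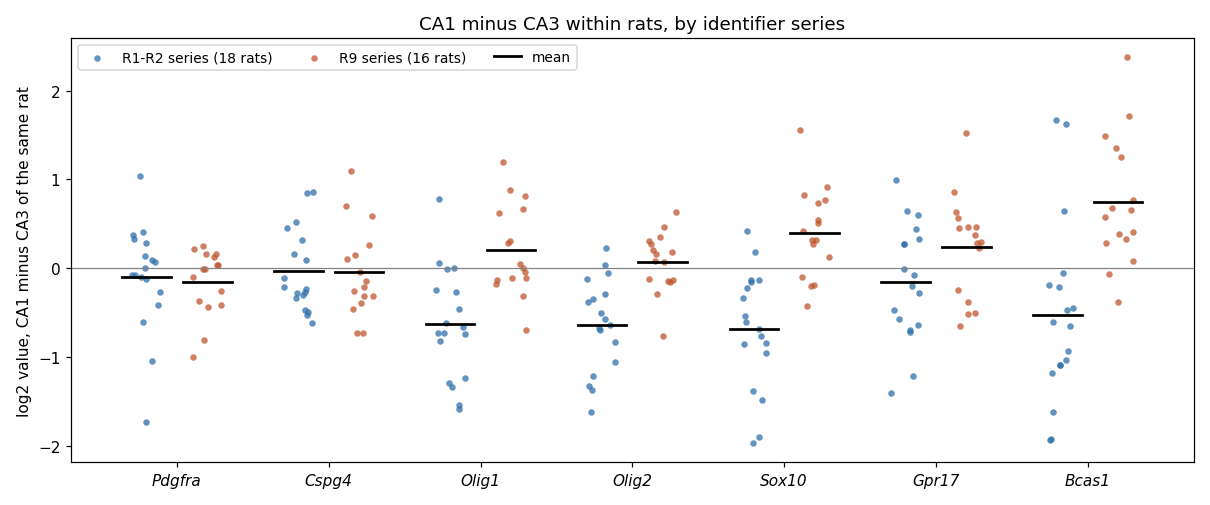
Log2 value in CA1 minus log2 value in CA3 of the same rat, for each member, with the 18 rats of the R1-R2 series in blue, the 16 of the R9 series in orange and a black bar at each mean. The Olig1, Olig2, Sox10 and Bcas1 means of the series are apart (for Sox10, -0.69 and 0.40), while those of Pdgfra and Cspg4 nearly coincide.

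The 20 libraries whose own subfield markers did not score highest included 14 of the 16 R9 CA3 libraries. The CA3 libraries that remained were mostly of the R1-R2 series. Leaving the 20 out kept 7 of 7 members lower in DG against both CA1 and CA3, beside 28.8% and 29.7% of all genes called. This says little of CA3 in R9. In CA1 against CA3, 2 of 7 members were then called, beside 23.4% of all genes. Olig2 (-0.46, adj-p = 0.000171) stayed and Sox10 (-0.41, adj-p = 0.0237) was added. Olig1 was at -0.34 (adj-p = 0.0542) and Bcas1 at -0.19 (adj-p = 0.505). In the R9 series alone, 6 of 7 members were called in CA1 against DG, beside 36.3% of all genes, but 4 of 7 in CA3 against DG, beside 27.2%, where Olig2, Sox10 and Bcas1 were at 0.23, 0.12 and 0.08 and did not pass. In the R1-R2 series alone the counts were 4 of 7 for CA1 against DG, without Pdgfra, Gpr17 and Olig1, and 7 of 7 for CA3 against DG, beside 14.3% and 22.2% of all genes.

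Among the other genes of the lineage, those of myelin were lower in DG, while precursor and committed genes were mixed. Of 20 myelin genes, 20 were lower in DG than in CA1 and 20 lower than in CA3, with medians of 0.67 and 0.84. Within the series, CA3 against DG had 20 of 20 called in R1-R2 (median 1.61) and 0 of 20 in R9 (median -0.01), and CA1 against DG had 20 of 20 and 13 of 20. Among them was Myrf, the transcription factor that drives myelination and is also on the list of regulators (0.82 in CA1 against DG and 0.90 in CA3 against DG). Myelin genes also followed the identifier series, since CA1 minus CA3 was higher in R9 than in R1-R2 for 19 of 20 (median 1.29) and CA3 minus DG was lower for 20 of 20 (median -1.62). Their summed normalized counts had medians of 104695 in CA1, 174202 in CA3 and 50822 in DG in the R1-R2 series, and of 172102, 108732 and 110533 in the R9 series. Other lists moved with the series as well. The ependymal and choroid plexus list had 5 of 6 genes higher in the R9 series in CA1 minus CA3 (median 3.36), and its part and that of myelin in the members' split were not tested.

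Other precursor genes were less uniform. Of 14 tested, 5 were higher in CA1 than in DG and 2 lower (median 0.18), and 7 were higher in CA3 than in DG and 0 lower (median 0.28; the limma test found 8 with an unadjusted p under 0.05). Sox6, a factor that holds precursors undifferentiated, was among those higher in CA1 (0.55). The 2 lower in CA1 than in DG were Megf11 (-0.45) and Emid1 (-0.43), which were also lower in CA1 than in CA3 (-0.56 and -0.59) among 3 of 14 lower there. In CA3 against DG the leading genes were Sox6 (0.50) and C1ql1 (0.58), a secreted protein of the C1q family. By series, the other precursor genes in CA1 against DG had 1 higher and 2 lower in R1-R2 alone. In R9 alone they had 5 higher and 1 lower. Among 9 genes of committed precursors, 4 were higher and 2 lower in CA1 than in DG, and 6 higher and 1 lower in CA3 than in DG. In CA3 against DG the R1-R2 series alone had 5 higher and 1 lower (median 0.42), and the R9 series 2 higher and 2 lower (median 0.07). Nkx6-2 (0.89 and 0.99), a homeobox factor of oligodendrocytes, led in both. Tcf7l2 (0.57), a Wnt effector in differentiating cells, came next in CA1 against DG and the deacetylase Sirt2 (0.33) in CA3 against DG. Mycl (-0.83 and -1.10) was lower than in DG in both comparisons and Fyn (-0.12), a kinase shared with neurons, in CA1 alone.

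Of the growth factors and receptor related to Pdgfra, 2 of 5 were higher in CA1 than in DG, the ligand Pdgfc (0.40, adj-p = 0.0295) and the pericyte receptor Pdgfrb (0.31, adj-p = 0.0329). In CA3 against DG it was 1 of 5, Pdgfc (0.43, adj-p = 0.0165). Within the series, CA1 against DG had 0 of 5 called in R1-R2 alone and 2 of 5 higher in R9 alone. Of 15 regulators of the lineage, 9 were higher and 1 lower in each comparison with DG. They were led by Myrf and Notch1 (0.56), the receptor of Notch signalling, in CA1, and by Sox5 (1.09), which acts with Sox6 in precursors, and Myrf in CA3. Id2, an inhibitor of differentiation, was lower than in DG by -0.38 and -0.63, and its relative Id4 was the one regulator called in CA1 against CA3 (0.44). Among markers of other cells that express members, 2 of 8 pericyte genes were higher in CA1 than in DG and 0 of 8 in CA3 (0 with an unadjusted p under 0.05 by limma), with summed counts of 790.4 to 3197 in CA1, 616 to 4824 in CA3 and 500.0 to 1879 in DG. In the R9 series alone 3 of 8 pericyte genes were higher in CA1 and 3 of 8 in CA3 than in DG (medians 0.44 and 0.48), and in R1-R2 alone 0 of 8 were called in either (medians 0.30 and -0.14). Fibroblast markers had 3 of 8 higher in each, with sums of 1565 to 10465 in CA1, 1452 to 24496 in CA3 and 1084 to 4687.5 in DG. Beside the 28.5% and 28.9% of all genes called in either direction, higher in CA1 than in DG were also 3 of 8 astrocyte, 3 of 9 microglial, 4 of 6 endothelial and 2 of 6 ependymal genes, and in CA3 3 of 8, 6 of 9, 0 of 6 (2 endothelial genes with an unadjusted p under 0.05 by limma) and 3 of 6. Neuronal genes were lower in CA1 than in DG for 3 of 7 and in CA3 for 1 of 7. By series, CA3 against DG had 0 of 8 astrocyte and 4 of 6 ependymal genes higher in R1-R2 alone. In R9 alone it had 4 of 8 and 0 of 6. No gene of the pericyte or fibroblast list was at 0 throughout a subfield, and the part of these cells in the members' differences was not tested.

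Age did not change any member past the threshold. The limma test of 24 aged against 10 young rats called 0 of 7 members in each of CA1, CA3 and DG, beside 0.0183%, 0.00607% and 0.0741% of all genes. The edgeR and DESeq2 tests on recovered reads also called 0 members in each subfield. An unadjusted p under 0.05 by limma was found for 2 members in CA1, Bcas1 and Sox10, and for 0 in CA3 and DG. Over all genes the shares at this cutoff were 3.43% in CA1, 1.53% in CA3 and 8.33% in DG. In CA1, Bcas1 ran from 1812 to 5042 in young rats (median 2534) and from 2211 to 17314 in aged rats (median 3941). The log2 FC of Bcas1 was 0.62 (interval 0.09 to 1.15, p = 0.0233, adj-p = 0.934 by limma), and the groups overlapped. Without the libraries of fewer than 17000 genes, which included 4 of the 24 aged CA1 libraries, the highest aged value of Bcas1 was 7549, the median 3511 and the log2 FC 0.36 (interval -0.04 to 0.75, p = 0.0742 by limma). Sox10 in CA1 ran from 681 to 1319.7 in young rats (median 885) and from 589 to 1919 in aged rats (median 1147). Its log2 FC was 0.31 (p = 0.0467 and adj-p = 0.934 by limma) and 0.29 without the same libraries (p = 0.0739 by limma).

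No other age difference of a member had an unadjusted p under 0.05 by limma, but the intervals allow changes as large as those of Bcas1 or Sox10 for some. In CA1 the log2 FC was -0.14 for Pdgfra (interval -0.45 to 0.17), 0.24 for Cspg4 (-0.07 to 0.54), 0.04 for Gpr17 (-0.42 to 0.51), 0.01 for Olig1 (-0.37 to 0.38) and 0.04 for Olig2 (-0.25 to 0.33). In CA3, Pdgfra was at -0.20 (-0.45 to 0.04), with a young median of 1049 and an aged median of 1002, and Gpr17 at -0.31 (-0.74 to 0.12), with medians of 149 and 147. The remaining CA3 values lay between -0.00 (Olig2) and 0.26 (Bcas1). In DG the members lay between 0.01 (Olig2) and 0.23 (Cspg4, interval -0.07 to 0.52). Cspg4 in DG ran from 283 to 589 in young rats (median 394) and from 290.8 to 769.7 in aged rats (median 456). In DG, 1 young library, from the R9 series, held the highest young value of Olig1, Olig2, Sox10 and Bcas1, and its own DG markers did not score highest. Without it the log2 FC in DG was 0.28 for Olig1, 0.12 for Olig2, 0.27 for Sox10 and 0.25 for Bcas1, and 0 of 7 members were called, with 0 at an unadjusted p under 0.05 by limma. No other list of the lineage changed with age, with 0 genes of the other precursor, committed, myelin, PDGF and regulator lists called in any subfield, where unadjusted p under 0.05 by limma were found for 1 myelin gene in CA1 and 3 other precursor genes in DG. Of the markers of other cell types, 1 of 9 microglial genes was called with age, higher in DG of aged rats. An unadjusted p under 0.05 by limma was found for 4 of 9 microglial genes in CA1, 3 in CA3 and 6 in DG. The median log2 FC of the 9 was 0.24, 0.23 and 0.30.

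The age effect on the members was not found to differ between subfields. Tested on differences within rats, 0 of 7 members were called in CA1 minus CA3, CA1 minus DG and CA3 minus DG, where 0%, 0% and 0% of all genes passed by limma, with 123, 405 and 382 genes and 0 members at an unadjusted p under 0.05. Estimates ran from -0.46 (Gpr17, CA3 minus DG, interval -1.03 to 0.11) to 0.51 (Bcas1, CA1 minus DG, interval -0.13 to 1.15). These fits kept the libraries of few genes, which held the highest Bcas1 values.

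**Figure D4:**
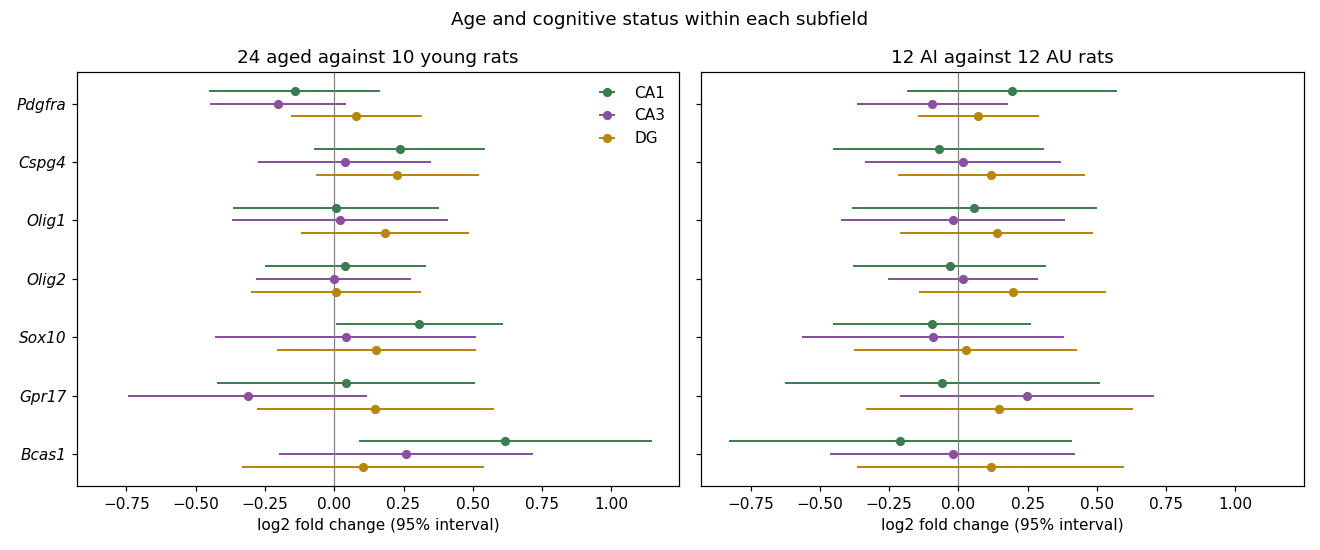
Log2 FC with its 95% interval (limma) for aged against young rats (left) and AI against AU rats (right) in CA1 (green), CA3 (purple) and DG (ochre). Most intervals include 0, and the exceptions are Bcas1 (0.62) and Sox10 (0.31) in CA1 with age.

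Cognitive status separated none of the members. The limma test of 12 AI against 12 AU rats called 0 of 7 members in each subfield, where 0%, 0% and 0% of all genes passed in CA1, CA3 and DG. The edgeR and DESeq2 tests called 0 members and 0 genes of the table in each. The limma test gave an unadjusted p under 0.05 to 341, 264 and 287 genes in CA1, CA3 and DG and to 0 members. The largest estimates were 0.25 for Gpr17 in CA3 (interval -0.21 to 0.71), -0.21 for Bcas1 in CA1 (-0.83 to 0.41) and 0.20 for Olig2 in DG (-0.14 to 0.53). Gpr17 in CA3 ran from 55.3 to 219 in AU rats (median 132) and from 62.1 to 243 in AI rats (median 149), with almost the same range. The 3 CA3 libraries of few genes were all from AI rats, and 1 of them held the value of 62.1. Without them 0 of 7 members were called in CA3. The smallest unadjusted p of a member there was 0.277 with them and 0.106 without them by limma. Olig2 in DG ran from 213 to 532 in AU rats (median 330.1) and from 245 to 619 in AI rats (median 339.7). Pdgfra differed by 0.19 in CA1 (-0.19 to 0.57), a value that was 0.03 without the libraries of few genes, which held 2 of the 12 AU and 2 of the 12 AI libraries of CA1. The 5 lineage lists had 0 genes called between AI and AU rats in each subfield, with an unadjusted p under 0.05 by limma for 1 regulator in CA1 and 1 regulator and 1 PDGF gene in CA3. The difference of this AI effect between subfields was tested within rats, and 0 of 7 members were called in CA1 minus CA3, CA1 minus DG and CA3 minus DG, beside 0%, 0% and 0% of all genes by limma, with 433, 496 and 308 genes and 0 members at an unadjusted p under 0.05. Estimates lay between -0.33 (Bcas1, CA1 minus DG) and 0.29 (Pdgfra, CA1 minus CA3), from fits that kept the libraries of few genes.

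The members did not vary as 1 block. Each library's log2 value was set against the mean of its subfield and group, and Pearson r was computed over all libraries as a description, since the 3 libraries of a rat, the series and the dissection are shared between points. Over all libraries the closest pair was Cspg4 and Gpr17 (r = 0.859), the genes whose promoters are printed above. Next came Olig1 and Sox10 (0.749), Olig2 and Sox10 (0.713), Sox10 and Bcas1 (0.699) and Olig1 and Olig2 (0.676). Pdgfra was apart, with r of 0.0654 to Cspg4, 0.0892 to Gpr17, 0.504 to Olig1 and -0.21 to Bcas1, values that changed without the libraries of few genes. Within the series, Cspg4 and Gpr17 were at 0.877 and Olig2 and Sox10 at 0.565. Some of these values rested on the libraries with few genes detected. Without these 7, over 95 libraries, r rose from 0.368 to 0.816 for Olig1 and Bcas1, from 0.57 to 0.782 for Olig2 and Bcas1 and from 0.0654 to 0.337 for Pdgfra and Cspg4. For Pdgfra and Bcas1 it turned from -0.21 to 0.195, for Pdgfra and Gpr17 it rose from 0.0892 to 0.245, and for Pdgfra and Olig1 it fell from 0.504 to 0.291. Olig1 and Sox10 (0.861) were then the closest pair, ahead of Cspg4 and Gpr17 (0.848). The number of genes detected was itself correlated with Pdgfra (r = 0.637) and Olig1 (0.422), less with Bcas1 (-0.305), and hardly with Gpr17 (-0.0321), over all libraries.

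**Figure D5:**
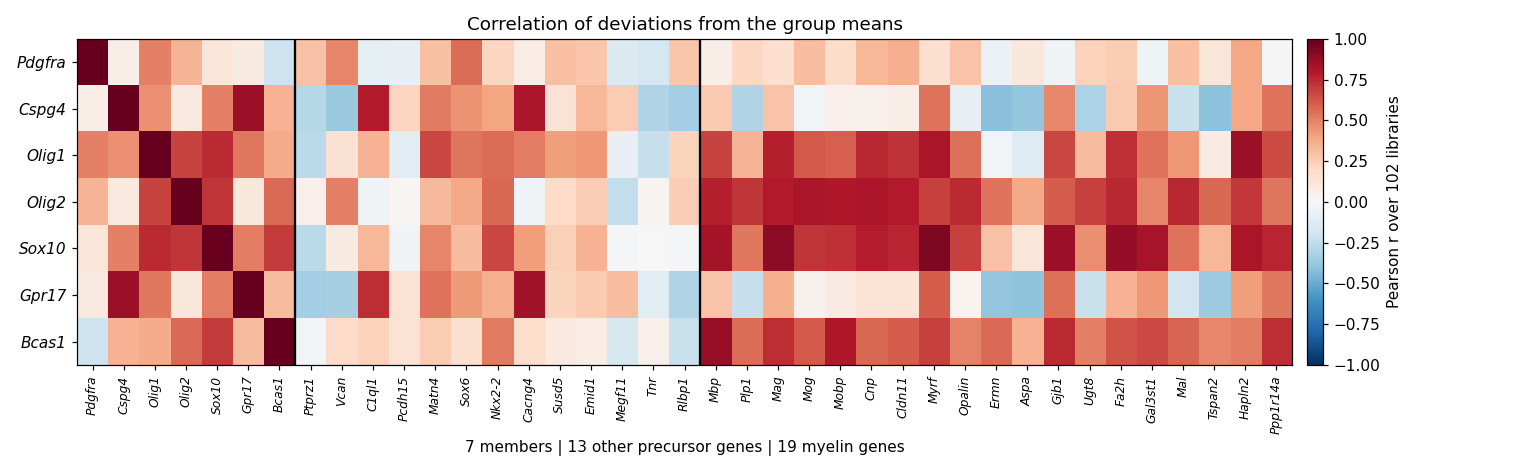
Pearson r over all libraries of each member (rows) with the other members, other precursor genes and myelin genes (columns), from -1 (blue) to 1 (red). Olig1, Olig2, Sox10 and Bcas1 are mostly red across the myelin genes, while Cspg4 and Gpr17 are red with each other and with Cacng4 and C1ql1. Over the whole list of other precursor genes the median r was 0.279 for Cspg4 and 0.263 for Gpr17, with lowest values of -0.367 and -0.342.

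The genes most like each member followed the same lines. Their r and the medians over lists included the 7 libraries of few genes and were not computed without them. Pdgfra was correlated with the number of genes detected (r = 0.637). Likeness to Pdgfra and a shared tie to that number cannot be told apart here. For Sox10 they were Myrf (0.931), Pllp, a myelin membrane protein (0.917), and Mag, a myelin adhesion protein (0.897). Those of Olig2 were Erbb3, a neuregulin receptor (0.832), the myelin protein gene Mog (0.817) and the protease gene Klk6 (0.812). Bcas1 was closest to Mbp, myelin basic protein (0.869), Lpar1, a lysophosphatidic acid receptor (0.861), and Nkx6-2 (0.841). Olig1 was closest to the kinesin Kif1c (0.918), the G protein subunit Gna12 (0.900) and Csrp1 (0.880). Cspg4 was instead closest to Ptprf, a receptor phosphatase (0.869), Rgma, a guidance molecule (0.864), and the fatty acid transporter Slc27a1 (0.856), and Gpr17 to Rgma (0.853), Pcbp4 (0.846) and Cacng4, a gene of the other precursor list (0.838). Pdgfra was closest to the homeobox gene Meis1 (0.796), Ampd3 (0.770) and the amino acid transporter Slc7a2 (0.739). Over the 20 myelin genes the median r was 0.758 for Sox10, 0.713 for Olig2, 0.633 for Olig1 and 0.611 for Bcas1, but 0.172 for Pdgfra, 0.136 for Gpr17 and 0.0603 for Cspg4. Over 8 pericyte genes the median r was 0.407 for both Cspg4 and Gpr17 and 0.376 for Pdgfra, while over 8 fibroblast genes it was 0.374 for Pdgfra and 0.156 for Cspg4. Other lists gave values as high, with a median r of 0.399 for Pdgfra over 8 astrocyte genes and 0.612 for Olig1 over 9 microglial genes. Within the series the myelin medians were 0.658 for Sox10, 0.562 for Olig2, 0.546 for Olig1 and 0.406 for Bcas1, and 0.0941 for Pdgfra, 0.185 for Gpr17 and 0.115 for Cspg4.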

How the data were processed

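The authors aligned Ion Proton reads of poly-A mRNA to rn5 (Rnor_5.0) with TopHat2 and Bowtie2, counted them with featureCounts 1.4.4 and deposited normalized counts, a signal per gene equal to the count divided by a DESeq2 size factor. Whole reads were recovered from the signal for 100% of values (within 0.0001 of a whole number). Tests over all genes used limma 3.58.1 (trend, R 4.3.3) on log2(value + 1), keeping genes whose mean reached 5, two-sided, Benjamini-Hochberg threshold 0.05. Alternatives included edgeR 4.0.16 and DESeq2 1.42.0 on recovered reads. Libraries of a rat shared its number, which came from the same animal (mean correlation of deviations 0.0626 for CA1 and CA3, 0.103 for CA1 and DG, 0.0078 for CA3 and DG). The members and lists were chosen with earlier results of these data known. Named are the members, the 2 genes per list, direction and subfield comparison with the smallest adjusted p, and the 3 genes most like each member, and some genes that this rule names are not reported here. Intervals cover the spread between rats. Other sequencing data of the study were not used here. Figures were drawn with matplotlib 3.10.9.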

Additional observations from a re-analysis of the deposited data

Results flagged for a closer look

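Dixon's test for a far library was run on the groups of young rats only, and not on AU or AI groups. It flags about 1 group in 20 by chance where values are normally distributed. Of 21 groups of young rats (7 members in 3 subfields), 7 held a library far from the other 9. In DG, 4 of the 7 were a single library of the R9 series, with 1682 normalized counts of Olig1, 695 of Olig2, 1339.9 of Sox10 and 4987 of Bcas1. The others were Pdgfra at 2003 in CA3, Olig2 at 673 in CA1 and Olig2 at 1184 in CA3. The cause was not tested.

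The subfield difference within rats differed between the R9 and R1-R2 series for 4 members by the limma test of that difference. R9 exceeded R1-R2 in CA1 minus CA3 by 1.27 for Bcas1, 0.83 for Olig1, 0.70 for Olig2 and 1.09 for Sox10 on the log2 scale. In CA3 minus DG the values were -1.49, -0.56, -0.92 and -1.25 for Bcas1, Olig1, Olig2 and Sox10. The series and the libraries' own subfield scores cannot be told apart in CA3, where 14 of 16 R9 libraries did not score highest for CA3.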

How the results depend on the processing

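Of 833 log2 FC values of members under alternatives, 759 kept their direction and call, 63 turned direction, 7 lost and 4 gained a call. Counts of members called moved by over 1.5 times in CA1 against CA3 (1 over all rats, 4 in the R1-R2 series alone, 2 without the 20 libraries whose own subfield did not score highest), CA1 against DG (7, and 4 in R1-R2 alone) and CA3 against DG (7, and 4 in R9 alone). With the rat as replicate block the counts stayed at 1, 7 and 7, and the block changed no call. Of the turned values, Bcas1 at -0.53 in R1-R2 alone was the one called. The cause was not tested.

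For CA1 against CA3, R1-R2 alone gave -0.53 for Bcas1 and -0.15 for Gpr17, and R9 alone 0.20 for Olig1, 0.07 for Olig2 and 0.40 for Sox10. The 20 libraries left out gave -0.19 for Bcas1, 0.01 for Cspg4 and -0.06 for Gpr17. Leaving out the libraries with fewer than 17000 genes, a setting chosen after seeing the data like that without the DG library of 1 young rat, gave -0.11 for Bcas1 and -0.08 for Gpr17.

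For aged against young, AI alone gave Olig2 0.01 and Sox10 -0.01 in CA3, and AU alone Olig1 -0.02 in CA1 and Olig2 -0.09 in DG. DESeq2 and edgeR each gave Olig1 -0.03 and Sox10 -0.07 in CA3. R1-R2 alone gave Olig1 -0.02 and Olig2 -0.03 in CA1, Olig1 -0.18 and Sox10 -0.18 in CA3 and Olig2 -0.14 in DG. R9 alone gave Gpr17 -0.04 in CA1, Cspg4 -0.01 and Olig2 0.23 in CA3 and Pdgfra -0.07 in DG. The 20 libraries left out gave Olig1 -0.04 and Olig2 -0.0046 in CA1, and Bcas1 -0.07, Olig1 -0.16 and Sox10 -0.28 in CA3. The libraries of few genes left out gave Gpr17 -0.08 and Pdgfra 0.03 in CA1.

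For AI against AU, DESeq2 gave Bcas1 0.08, Olig1 0.05 and Sox10 0.02 in CA3, and edgeR 0.07, 0.05 and 0.01. R1-R2 alone gave Olig2 0.11 in CA1, and Bcas1 0.25 and Sox10 0.07 in CA3. R9 alone gave Bcas1 0.25, Cspg4 0.02, Gpr17 0.01, Olig1 -0.19 and Pdgfra -0.20 in CA1, Olig1 0.05, Olig2 -0.23 and Pdgfra 0.03 in CA3, and Cspg4 -0.05 and Gpr17 -0.27 in DG. The series as a covariate gave Olig2 0.0017 in CA1 and -0.0017 in CA3. The 20 libraries left out gave Cspg4 -0.07 and Gpr17 -0.03 in CA3 and Sox10 -0.01 in DG. The libraries of few genes left out gave Gpr17 0.01 and Olig1 -0.08 in CA1, and Olig1 0.13, Pdgfra 0.03 and Sox10 0.07 in CA3.

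Gpr17 had as few as 19 reads in a library, so its values carry a larger relative counting error than those of the other members.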
